A study of Homo sapiens with 6 samples.

Results

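The genes described here are 35 genes of glycolysis and lactate metabolism, listed by name and pathway step. The rule uses no measured value, but the list was made with earlier results of these data known. They cover glucose uptake, the enzymes from hexokinase to pyruvate kinase, the PFKFB enzymes that set the level of fructose 2,6-bisphosphate, lactate dehydrogenase, the lactate transporters, the gate into the mitochondrion at pyruvate dehydrogenase, and a few side branches. All 35 were among the 57133 gene symbols of the count table, and 34 of them passed the filter on low counts together with 14461 genes in all. PDK4, with 0 to 2 counts per library, did not pass.

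RNA was sequenced from T98G, an established human glioblastoma cell line in which CBX8, a chromobox subunit of Polycomb repressive complex 1, had been knocked out with CRISPR (CBX8 KO). The CBX8 KO libraries (n = 3) came from knockout cells with the empty TetOFUW vector, and the WT CBX8 re-expression libraries (n = 3) from the same knockout line with V5-tagged WT CBX8 in that vector, under a doxycycline-inducible promoter. All 6 libraries had the CBX8 knockout, the reverse tetracycline transactivator, drug selection and doxycycline at 1 µg/ml for 72 h in common, and all cells grew in medium with added sodium pyruvate. The genotype label calls the re-expression libraries wild type, whereas their titles and the study's methods describe CBX8 put back into the knockout line, and the latter was used. The groups are 2 separately selected stable lines, so an effect of CBX8 and a difference between the lines cannot be told apart, and whether the knockout line is 1 clone is not given in the sources used here. The labels number the libraries as replicates without naming separate cultures, so every SD and p-value measures the spread between libraries.

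Total counts per library were 7950190 to 8659796. CBX8 had 83 to 104 counts in the CBX8 KO libraries and 27791 to 31408 in the WT CBX8 re-expression libraries, and the fold change was 8.22 on the log2 scale (SE 0.08, adjusted p = 1e-30, edgeR's quasi-likelihood test). Of 6 glioma or mesenchymal line markers, VIM, CD44, S100A6 and SPARC had at least 10 counts in every library, whereas NES had 0 to 4 and CHI3L1 1 to 10. Their summed level was 7758 to 8007 counts scaled to a library of 1000000 (CPM) in CBX8 KO and 7362 to 7672 in WT CBX8 re-expression. CD44 was lower upon re-expression (log2 fold change -0.21, adjusted p = 0.00967) and S100A6 higher (0.28, adjusted p = 0.00996), whereas VIM (0.05) and SPARC (-0.09) did not pass. The 3 epithelial markers summed to 0.126 to 0.256 CPM in CBX8 KO and 0.228 to 0.705 in WT CBX8 re-expression, with KRT5 at 0 in every library, and the 3 endothelial markers to 0.256 to 0.475 and 0.114 to 0.353. The part of these markers in the results was not tested.

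Glycolysis splits 1 glucose into a pair of pyruvate molecules in the cytosol and returns a net gain of ATP and NADH. Pyruvate is then either reduced to lactate by lactate dehydrogenase, which regenerates NAD+ and lets glycolysis go on, or taken into the mitochondrion and oxidised by the pyruvate dehydrogenase complex, which the PDK kinases switch off. Glioblastoma cells, like many tumour cells, are known for making much lactate even with oxygen present, and hypoxia-inducible factor, which binds DNA at ACGTG and GCGTG cores, is a textbook activator of many of these genes.

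Upon re-expression of CBX8, 17 of the 34 tested genes fell (50%), 2 rose (5.88%) and 15 did not pass a false discovery rate (FDR) of 0.05. Among all 14461 genes tested, 6.63% were lower and 6.23% were higher at the same threshold. All-gene calls depended on the scaling, with 959 genes lower and 901 higher here, 592 and 1400 with library size alone, 1357 and 816 with a GC and length correction, and 674 and 419 by DESeq2. The same settings gave 12, 20 and 15 of the pathway genes lower. The fold change was below 0 on the log2 scale for 27 of the 34 genes and above 0 for 7, with a median of -0.18 beside a median of 0.0049 over all tested genes. In 19 of the 34 genes every WT CBX8 re-expression library was below every CBX8 KO library, and in 3 every one was above, beside 14.4% of all tested genes in each direction. The changes were small. Among genes that passed, HK2 fell by 33.6%, the most, and TPI1 fell by 9.81%, the least. Each of the 10 enzymatic steps from glucose to pyruvate had at least 1 gene that fell. PFKL and TPI1 were the only genes that fell at their steps and lay near the threshold. In the other settings 7 to 10 steps had a gene that fell, the fewest with library size alone. There PKM, the only gene of its step, lost its call too (adjusted p = 0.0536, edgeR). Of the 17 genes that fell, 10 passed under each of 15 other settings (SLC2A1, HK2, GPI, ALDOA, GAPDH, PGK1, PGAM1, ENO1, LDHA and PDK1), and no gene that fell or rose changed direction under any of them. The count of genes that rose was less stable. It was 0 without CBX8 KO replicate 1, CBX8 KO replicate 2 or WT CBX8 re-expression replicate 2 in edgeR (2, 4 and 2 genes at an unadjusted p under 0.05), 1 without WT CBX8 re-expression replicate 1 or 3, and 0 by DESeq2 (2 unadjusted). In bulk RNA, fewer cells making a transcript and less of it per cell cannot be told apart.

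**Figure D1:**
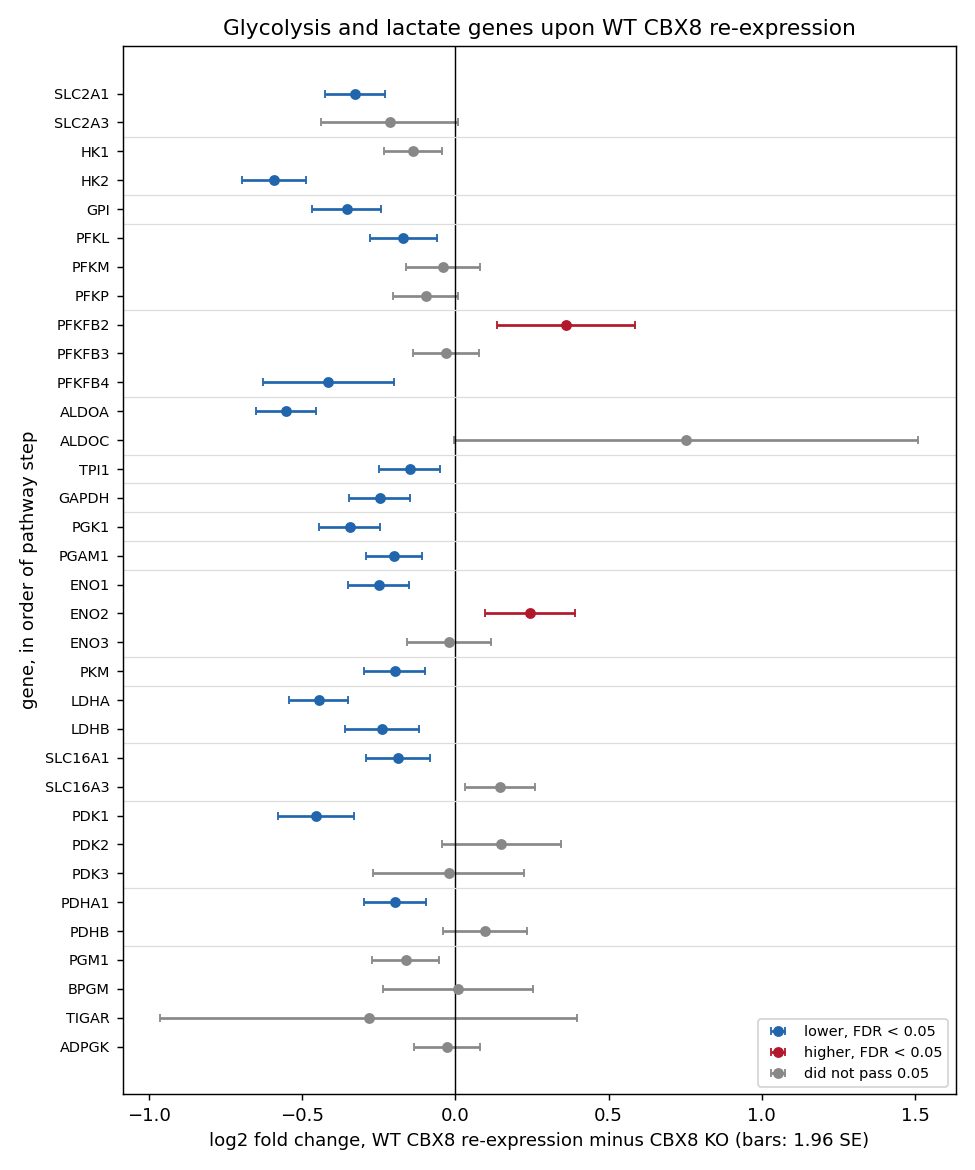
Log2 fold change of WT CBX8 re-expression over CBX8 KO for the 34 tested genes in pathway order (bars, approximate 95% confidence interval from the SE of edgeR's quasi-likelihood fit, 3 libraries per group). Most points from SLC2A1 to LDHB lie left of 0, HK2 lies lowest at -0.59, and PFKFB2 and ENO2 are the genes that passed on the right.

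As a share of the library, the 35 genes together took 2.01%, 2.09% and 2.11% of all counts in CBX8 KO replicates 1 to 3 (2.07% ± 0.0515, SD, n = 3). In WT CBX8 re-expression replicates 1 to 3 they took 1.80%, 1.83% and 1.77% (1.80% ± 0.0304, SD, n = 3). The groups did not overlap, and the summed level was 21147 ± 350 CPM in CBX8 KO and 17699.9 ± 338 in WT CBX8 re-expression (SD, n = 3). A few genes carried most of this sum. GAPDH ranked 6 by mean CPM among all tested genes, PKM ranked 12, LDHA 24 and ENO1 36. Per kilobase of canonical transcript, which allows genes to be compared, the level in CBX8 KO was 4753 CPM per kb for GAPDH, 1760 for PKM, 1296 for LDHA, 1115 for ENO1 and 748 for TPI1, and all 5 were lower in WT CBX8 re-expression, at 4006, 1535, 951, 937 and 675. Among the least abundant genes, ALDOC lay at 0.641 CPM per kb in CBX8 KO and PFKFB2 at 1.73.

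Promoter sequence is shown for the 4 genes with the lowest log2 fold changes among those that fell (HK2, ALDOA, PDK1 and LDHA). Each line gives the 250 bases before the RefSeq start in GRCh38.p14, on the strand of the gene, in lower case, and capitals mark ACGTG or GCGTG on either strand (CACGT or CACGC where the match is on the opposite strand). The windows are chr2:74833877-74834126 (+) for HK2, chr16:30065510-30065759 (+) for ALDOA, chr2:172555840-172556089 (+) for PDK1 and chr11:18394313-18394562 (+) for LDHA.
HK2: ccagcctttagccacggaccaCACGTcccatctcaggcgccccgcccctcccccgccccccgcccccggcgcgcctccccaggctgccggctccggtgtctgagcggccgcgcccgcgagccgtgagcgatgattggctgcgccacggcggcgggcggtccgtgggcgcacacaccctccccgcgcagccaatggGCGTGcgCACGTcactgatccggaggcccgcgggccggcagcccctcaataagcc
ALDOA: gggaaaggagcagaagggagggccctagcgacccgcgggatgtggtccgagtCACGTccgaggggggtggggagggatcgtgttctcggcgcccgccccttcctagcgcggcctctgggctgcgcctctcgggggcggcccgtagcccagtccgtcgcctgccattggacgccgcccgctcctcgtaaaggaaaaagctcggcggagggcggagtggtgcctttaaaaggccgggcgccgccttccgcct
PDK1: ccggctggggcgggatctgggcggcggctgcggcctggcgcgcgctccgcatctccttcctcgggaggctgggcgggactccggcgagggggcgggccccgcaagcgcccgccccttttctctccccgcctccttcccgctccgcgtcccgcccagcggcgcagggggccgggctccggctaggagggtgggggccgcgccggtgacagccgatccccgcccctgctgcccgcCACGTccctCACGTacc
LDHA: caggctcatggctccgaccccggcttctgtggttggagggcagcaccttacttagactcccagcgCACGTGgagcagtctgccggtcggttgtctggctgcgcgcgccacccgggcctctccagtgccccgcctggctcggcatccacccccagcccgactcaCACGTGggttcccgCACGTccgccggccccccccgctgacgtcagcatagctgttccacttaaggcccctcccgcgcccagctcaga
LDHA had 5 matches, HK2 3, PDK1 2 and ALDOA 1. These 4 do not stand for all genes that fell, since SLC2A1, TPI1, PGAM1, PKM and LDHB had 0 matches. ENO2, which rose, had 1. LDHA also held 2 copies of CACGTG, which reads the same on both strands and so counts as an ACGTG match on each.

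Of the 35 genes, 32 had a promoter in the RefSeq table (SLC2A3, PFKFB2 and SLC16A1 had none). Where a gene had several, the window nearest the GENCODE canonical start was taken, and 26 of the 32 lay exactly at that start. The others, such as PFKM (3283 bases away), PGAM1 (1627) and GAPDH (747), did not. At least 1 ACGTG or GCGTG on either strand stood in 22 of the 32 windows (68.8%), beside 55.0% of the windows of tested genes and 43.2% of all 35116 windows. Genes that fell and genes that did not had the same share, 11 of 16 windows each. ACGTG alone stood in 16 of 32 windows (50%), beside 22.3% of the windows of tested genes. It stood in 7 of the 16 windows of genes that fell and in 9 of the other 16. CACGTG, the E-box, stood in 6 of the 32 windows (18.8%) and in 8.18% of those of tested genes. Each of the 32 genes gave 1 window here, whereas the shares beside them counted every window of a gene, so they are not like for like. Binding was not measured, and a match is only a description of the letters.

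Glucose enters the cell through the facilitative transporters of the SLC2A family. SLC2A1, which encodes GLUT1, the widespread transporter of proliferating cells, stood at 629, 704 and 655 CPM in CBX8 KO replicates 1 to 3 and at 521, 530.1 and 535 CPM in WT CBX8 re-expression replicates 1 to 3. The groups did not overlap. SLC2A1 fell by 20.3% (log2 fold change -0.33, SE 0.05, adjusted p = 3.83e-05). SLC2A3, which encodes the high-affinity neuronal transporter GLUT3, was far lower per kilobase (5.08 CPM per kb in CBX8 KO, against 196 for SLC2A1), and its groups overlapped. Its log2 fold change was -0.21 (SE 0.11, adjusted p = 0.247).

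Hexokinase traps glucose as glucose 6-phosphate. HK2, the inducible form, stood at 155, 160.3 and 153 CPM in the CBX8 KO libraries and at 109, 97.9 and 104 in the WT CBX8 re-expression libraries, 156 ± 3.85 CPM against 104 ± 5.42 CPM (SD, n = 3). Every re-expression library was lower by more than the spread within either group. HK2 had the lowest fold change of the 34 genes (log2 fold change -0.59, SE 0.05, adjusted p = 1.02e-08). HK1, the constitutive form, stood at 224, 225 and 234 CPM in CBX8 KO and at 202, 205 and 213 in WT CBX8 re-expression. The HK1 groups did not overlap either, but the difference missed the threshold (log2 fold change -0.14, SE 0.05, adjusted p = 0.0635). With the GC and length correction HK1 passed (-0.18, adjusted p = 0.00388). On the log2 scale the ratio of HK2 to HK1 counts was -0.54 ± 0.062 in CBX8 KO and -1.0 ± 0.092 in WT CBX8 re-expression (SD, n = 3), a difference of -0.46. The ratio was lower in each of the 3 re-expression libraries (exact permutation test, two-sided, p = 0.1, the smallest that 3 against 3 libraries allow, adjusted p = 0.16 over 8 ratios).

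Glucose phosphate isomerase (GPI) turns glucose 6-phosphate into fructose 6-phosphate. GPI stood at 508, 474 and 485 CPM in CBX8 KO and at 354, 365 and 428 in WT CBX8 re-expression. Re-expression replicate 3 was nearer to the CBX8 KO libraries than the other two, without overlap, and GPI fell by 21.8% (log2 fold change -0.35, SE 0.06, adjusted p = 9.77e-05). Another annotated gene on the same strand covers 13.1% of the exon bases of GPI. Phosphofructokinase catalyses the committed step and has a liver, a muscle and a platelet form. PFKL, the liver form, stood at 114, 121 and 125 CPM in CBX8 KO and at 102, 106 and 113 in WT CBX8 re-expression. PFKL just passed (log2 fold change -0.17, SE 0.06, adjusted p = 0.0441) and did not pass without CBX8 KO replicate 2 or 3 (adjusted p = 0.13 and 0.143) or without WT CBX8 re-expression replicate 1 or 2 (0.168 and 0.16). Nor did it pass by DESeq2 (0.117), limma voom (0.0541), upper quartile scaling (0.0675), library size alone (0.188) or with the replicate number as a block (0.0635). PFKP, the platelet form and the highest of the 3 per kilobase (118 CPM per kb in CBX8 KO), had a log2 fold change of -0.10 (95% confidence interval -0.20 to 0.01, adjusted p = 0.273), and passed with the GC and length correction (-0.16, adjusted p = 0.0149). PFKM had -0.04 (adjusted p = 0.748).

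The PFKFB enzymes make and break fructose 2,6-bisphosphate, the strongest activator of phosphofructokinase, and their 3 measured genes went different ways. PFKFB4 stood at 21.3, 25.2 and 22.1 CPM in CBX8 KO and at 19.5, 15.8 and 16.3 in WT CBX8 re-expression, and fell by 25% (log2 fold change -0.41, SE 0.11, adjusted p = 0.0106). PFKFB2 stood at 11.7, 12 and 13.1 CPM in CBX8 KO and at 16.8, 15.4 and 15 in WT CBX8 re-expression, and rose by 28.4% (log2 fold change 0.36, SE 0.11, adjusted p = 0.036). Neither gene had overlapping groups, and neither call held in every setting. The adjusted p of PFKFB4 became 0.0783 without CBX8 KO replicate 2, and it was 0.0793 with WT CBX8 re-expression replicate 2 left out and 0.0633 by DESeq2. Among the fits that left out a library, PFKFB2 passed only without CBX8 KO replicate 3, and its adjusted p was 0.105 and 0.116 without CBX8 KO replicates 1 and 2 and 0.141, 0.0938 and 0.0506 without WT CBX8 re-expression replicates 1, 2 and 3. It was 0.0713 with no filter, 0.0635 with the block and 0.259 by DESeq2. PFKFB3, the hypoxia-inducible form with the strongest kinase bias, had a log2 fold change of -0.03 (95% confidence interval -0.14 to 0.08, adjusted p = 0.791). The log2 ratio of PFKFB4 to PFKFB3 counts was -2.13 ± 0.0867 in CBX8 KO and -2.51 ± 0.153 in WT CBX8 re-expression (SD, n = 3). The groups did not overlap (exact permutation test, two-sided, p = 0.1, the smallest possible, adjusted p = 0.16).

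**Figure D2:**
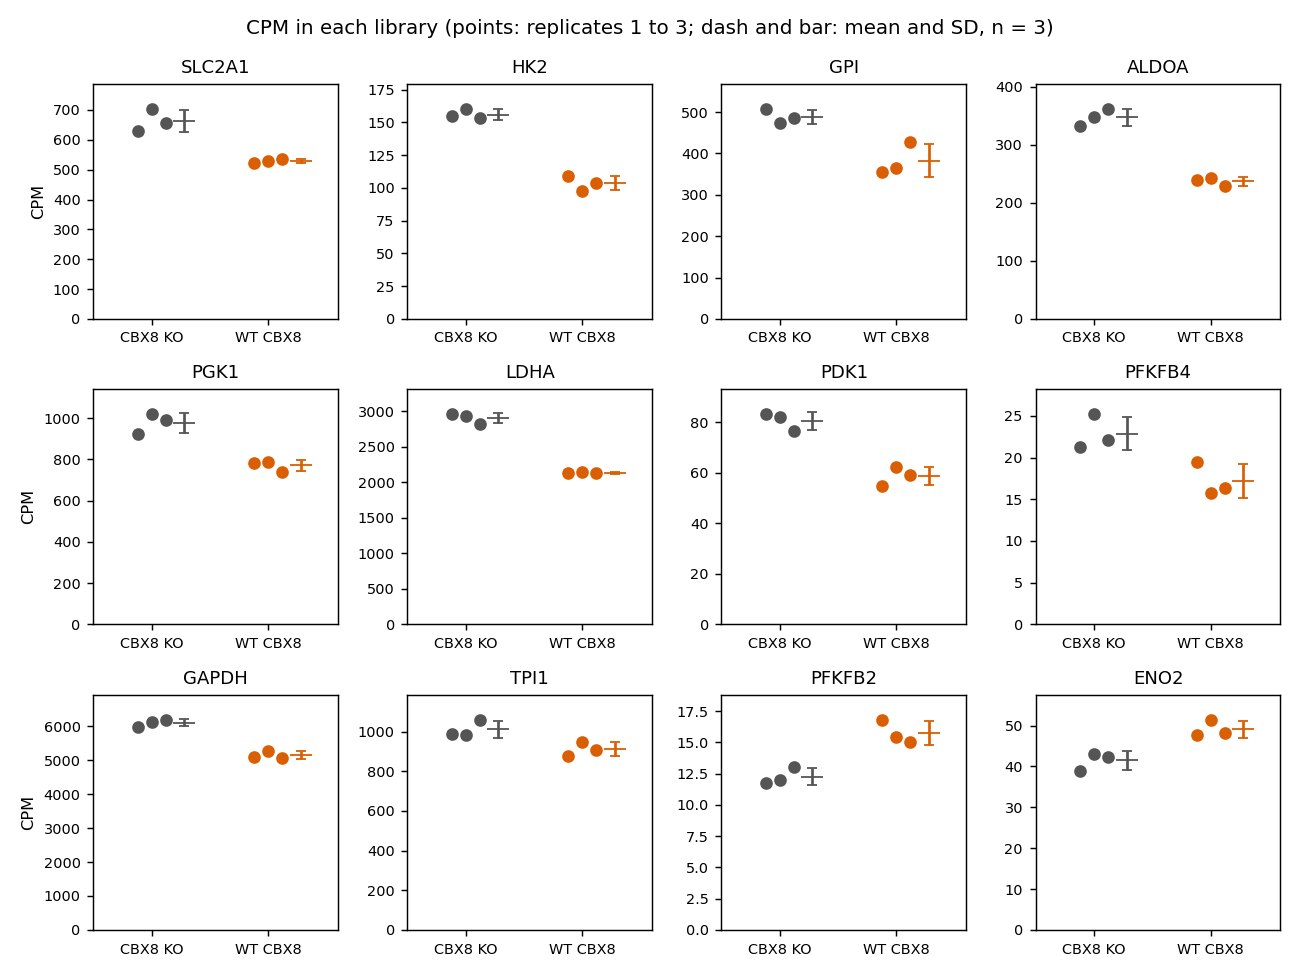
CPM on TMM-adjusted library sizes in each of the 6 libraries for 12 of the genes; each point is 1 library, the dash and bar give the mean and SD (n = 3), and each vertical axis starts at 0. The re-expression libraries lie below the CBX8 KO libraries for SLC2A1, HK2, GPI, ALDOA, GAPDH, PGK1, LDHA, PDK1, PFKFB4 and TPI1, and above them for PFKFB2 and ENO2.

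Aldolase splits fructose 1,6-bisphosphate into 2 triose phosphates. ALDOA, the main form outside liver and brain, stood at 333, 348 and 362 CPM in CBX8 KO and at 239.7, 243 and 229 in WT CBX8 re-expression, and fell by 31.8% (log2 fold change -0.55, SE 0.05, adjusted p = 8.55e-09). The GENCODE 44 annotation places another gene on the same strand over 89.8% of the exon bases of ALDOA. The program that assigned reads is not given in the sources used here, so the level of ALDOA is uncertain. ALDOC, the brain form, had 4 to 19 counts per library, and its log2 fold change of 0.75 did not pass (SE 0.39, adjusted p = 0.227). The log2 ratio of ALDOC to ALDOA counts was higher by 1.36 upon re-expression, on few ALDOC counts. The groups did not overlap (exact permutation test, two-sided, p = 0.1, the smallest possible, adjusted p = 0.16). Triose phosphate isomerase (TPI1) interconverts the trioses. TPI1 stood at 990.3, 984 and 1059 CPM in CBX8 KO and at 879, 950.1 and 906 in WT CBX8 re-expression, and was the gene just inside the threshold (log2 fold change -0.15, SE 0.05, adjusted p = 0.0497), with PGM1 (0.0574) and HK1 (0.0635) just outside it. TPI1 passed only without WT CBX8 re-expression replicate 2 among the fits that left out a library. The adjusted p was 0.0619, 0.0856 and 0.177 without CBX8 KO replicates 1, 2 and 3, and 0.154 and 0.0966 without WT CBX8 re-expression replicates 1 and 3. It was 0.0754 with upper quartile scaling, 0.225 with library size alone and 0.107 with the block.

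In the lower part of the pathway ATP and NADH are gained, and each step had a gene that fell. GAPDH, which oxidises glyceraldehyde 3-phosphate and is often used as a reference gene, stood at 5994, 6140.3 and 6190.4 CPM in CBX8 KO and at 5097, 5285 and 5061 in WT CBX8 re-expression. All 3 re-expression libraries were below all 3 CBX8 KO libraries, and GAPDH fell by 15.7% (log2 fold change -0.25, SE 0.05, adjusted p = 0.00144). Another annotated gene lies opposite to 32.8% of the exon bases of GAPDH. PGK1, the first ATP-generating enzyme, stood at 923, 1018 and 992 CPM in CBX8 KO and at 781, 789 and 740.5 in WT CBX8 re-expression, and fell by 21.2% (log2 fold change -0.34, SE 0.05, adjusted p = 2.3e-05). PGAM1, a phosphoglycerate mutase, stood at 341, 342 and 350.4 CPM in CBX8 KO and at 290.3, 308 and 301 in WT CBX8 re-expression, and fell by 12.9% (log2 fold change -0.20, SE 0.05, adjusted p = 0.00479). None of these 3 genes had overlapping groups, and each passed with any 1 library left out.

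Enolase makes phosphoenolpyruvate, and its 3 genes differed. ENO1, the ubiquitous form, stood at 1899, 1986 and 2069 CPM in CBX8 KO and at 1674, 1718 and 1614 in WT CBX8 re-expression, and fell by 15.9% (log2 fold change -0.25, SE 0.05, adjusted p = 0.00117). ENO2, the neuronal form, stood at 38.9, 43.1 and 42.4 CPM in CBX8 KO and at 47.7, 51.4 and 48.1 in WT CBX8 re-expression, and rose by 18.4% (log2 fold change 0.24, SE 0.07, adjusted p = 0.0297). ENO2 did not pass without CBX8 KO replicate 1 or 2 (adjusted p = 0.135 and 0.0574) or without WT CBX8 re-expression replicate 2 or 3 (0.134 and 0.0523), with no filter (0.0523) or by DESeq2 (0.162). ENO3, the muscle form, overlapped between groups, with a log2 fold change of -0.02 (adjusted p = 0.898). The log2 ratio of ENO2 to ENO1 counts was -5.58 ± 0.049 in CBX8 KO and -5.09 ± 0.039 in WT CBX8 re-expression (SD, n = 3). The ratio was higher in all 3 re-expression libraries (exact permutation test, two-sided, p = 0.1, the smallest possible, adjusted p = 0.16). ENO2 remained the least abundant of the 3, at 21.4 CPM per kb against 937 for ENO1 and 196 for ENO3 in WT CBX8 re-expression. Pyruvate kinase ends the pathway. PKM stood at 4017, 4003 and 4147 CPM in CBX8 KO and at 3429.9, 3646 and 3538 in WT CBX8 re-expression, and fell by 12.8% (log2 fold change -0.20, SE 0.05, adjusted p = 0.00929). With scaling by library size alone the adjusted p of PKM was 0.0536. Counts per gene do not separate the PKM1 and PKM2 isoforms.

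**Figure D3:**
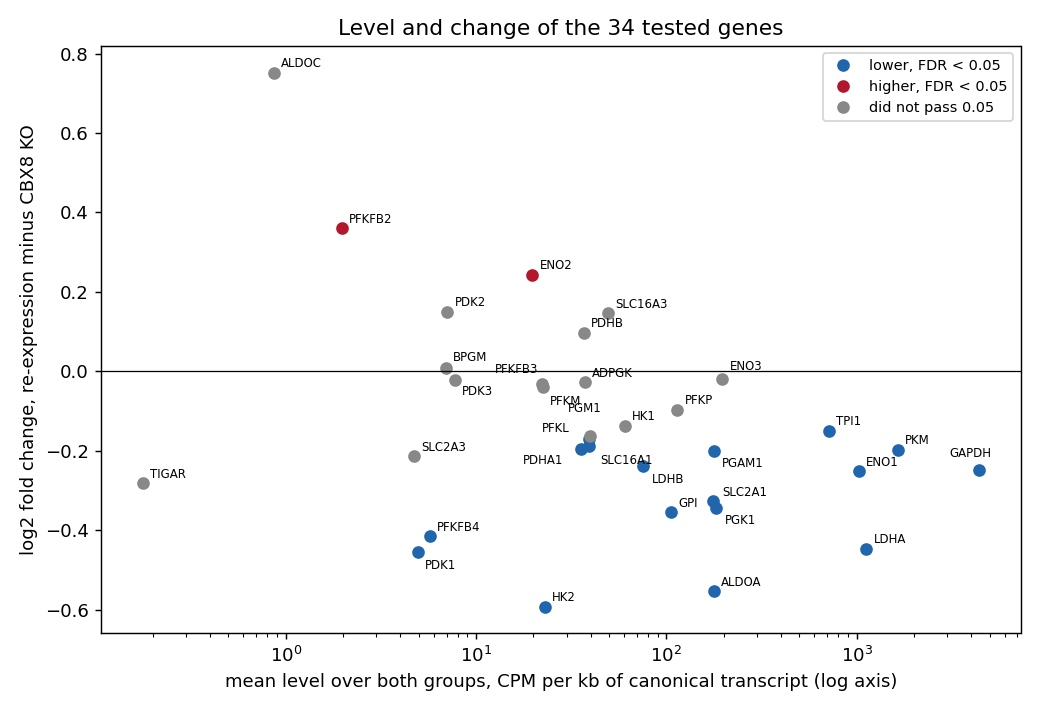
Log2 fold change (vertical axis) against the mean level of each gene in CPM per kb of canonical transcript (horizontal log axis) for the 34 tested genes. The genes that fell lie mostly in the right part of the plot. The 2 that rose, PFKFB2 and ENO2, had 1.73 and 18.1 CPM per kb in CBX8 KO and 2.23 and 21.4 in WT CBX8 re-expression, and each point lies at the mean of both groups.

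The genes that fell were mainly the abundant ones, as were the genes called lower among all tested genes. At a mean log2 CPM of at least 6, a level chosen after the values were seen, 16 of 24 genes fell (66.7%) with a median log2 fold change of -0.20, and no abundant gene was among the 2 that rose. Of the 3587 tested genes above that level, 15.9% were lower and 7.58% higher. Below it, 1 of 10 genes fell (PFKFB4) and 2 rose. Among all 14461 tested genes 959 were lower and 901 higher. Of these, 569 and 272 lay at or above that level, and the rest below it. Lower calls thus lay mainly at or above that level over all tested genes too, and higher calls mainly below it. The split by level was not particular to this pathway. Smaller changes can pass at higher counts, so the shares at both levels depend on depth as well as on the size of the change.

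Lactate dehydrogenase A, the form that favours the making of lactate from pyruvate, differed between the groups with little spread inside them. LDHA stood at 2956, 2935 and 2821 CPM in CBX8 KO and at 2126, 2145 and 2125 in WT CBX8 re-expression, 2904 ± 72.3 CPM against 2132 ± 11.4 CPM (SD, n = 3). The lowest CBX8 KO library was well above the highest re-expression library, and LDHA fell by 26.6% (log2 fold change -0.45, SE 0.05, adjusted p = 2.57e-07). LDHB, the form that favours the reverse reaction, stood at 106, 96.8 and 115 CPM in CBX8 KO and at 86.5, 94.6 and 87.6 in WT CBX8 re-expression, and fell by 15.3% (log2 fold change -0.24, SE 0.06, adjusted p = 0.00972). LDHB did not pass without CBX8 KO replicate 3 (adjusted p = 0.0718), and 76.5% of its exon bases lie under another annotated gene on the same strand, so its level is uncertain too. Per kilobase, LDHA was 16 times as high as LDHB in CBX8 KO and 13.8 times in WT CBX8 re-expression, and the difference of -0.21 in their log2 ratio was within the overlap of the groups (exact permutation test, two-sided, p = 0.2, adjusted p = 0.229).

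Lactate leaves or enters the cell with a proton through the monocarboxylate transporters. SLC16A1, which encodes MCT1, stood at 161, 149.9 and 160.4 CPM in CBX8 KO and at 133, 136 and 146 in WT CBX8 re-expression, and fell by 12.2% (log2 fold change -0.19, SE 0.05, adjusted p = 0.0184). It did not pass without CBX8 KO replicate 1 or 3 (adjusted p = 0.0632 and 0.0547) or without WT CBX8 re-expression replicate 1 or 2 (0.0819 and 0.102), or with library size alone (0.0946). SLC16A3, which encodes MCT4, the exporter of glycolytic cells, stood at 116, 129 and 122 CPM in CBX8 KO and at 143, 139 and 125 in WT CBX8 re-expression, with 1 library of each group inside the range of the other. Its log2 fold change of 0.15 did not pass (SE 0.06, adjusted p = 0.102), but it did with WT CBX8 re-expression replicate 3 left out (log2 fold change 0.20, adjusted p = 0.0278) and with library size alone (0.20, adjusted p = 0.0231). The log2 ratio of SLC16A3 to SLC16A1 was higher by 0.33 upon re-expression, with overlap (exact permutation test, two-sided, p = 0.2, adjusted p = 0.229).

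At the entry to the mitochondrion, the PDK kinases phosphorylate and shut off pyruvate dehydrogenase. PDK1, the hypoxia-inducible kinase, stood at 83.2, 82.2 and 76.4 CPM in CBX8 KO and at 54.9, 62.1 and 59.3 in WT CBX8 re-expression, without overlap, and fell by 27.1% (log2 fold change -0.46, SE 0.06, adjusted p = 1.04e-05). PDK2 and PDK3 did not pass. PDK2 had a log2 fold change of 0.15 (adjusted p = 0.369), with 62.8% of its exon bases opposite to SAMD14, and PDK3 had -0.02 (adjusted p = 0.942). The log2 ratio of PDK1 to PDK2 counts was 1.84 ± 0.18 in CBX8 KO and 1.23 ± 0.029 in WT CBX8 re-expression (SD, n = 3). The groups did not overlap (exact permutation test, two-sided, p = 0.1, the smallest possible, adjusted p = 0.16). PDHA1, the catalytic E1 alpha subunit that they phosphorylate, stood at 124, 129 and 129 CPM in CBX8 KO and at 110.3, 113 and 111 in WT CBX8 re-expression, and fell by 12.7% (log2 fold change -0.20, SE 0.05, adjusted p = 0.0102). It did not pass without CBX8 KO replicate 2 (adjusted p = 0.0569) or with library size alone (0.0707), and 28.6% of its exon bases lie opposite to MAP3K15, whose log2 fold change was -0.03. PDHB, the E1 beta subunit, had a log2 fold change of 0.10 (adjusted p = 0.419).

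**Figure D4:**
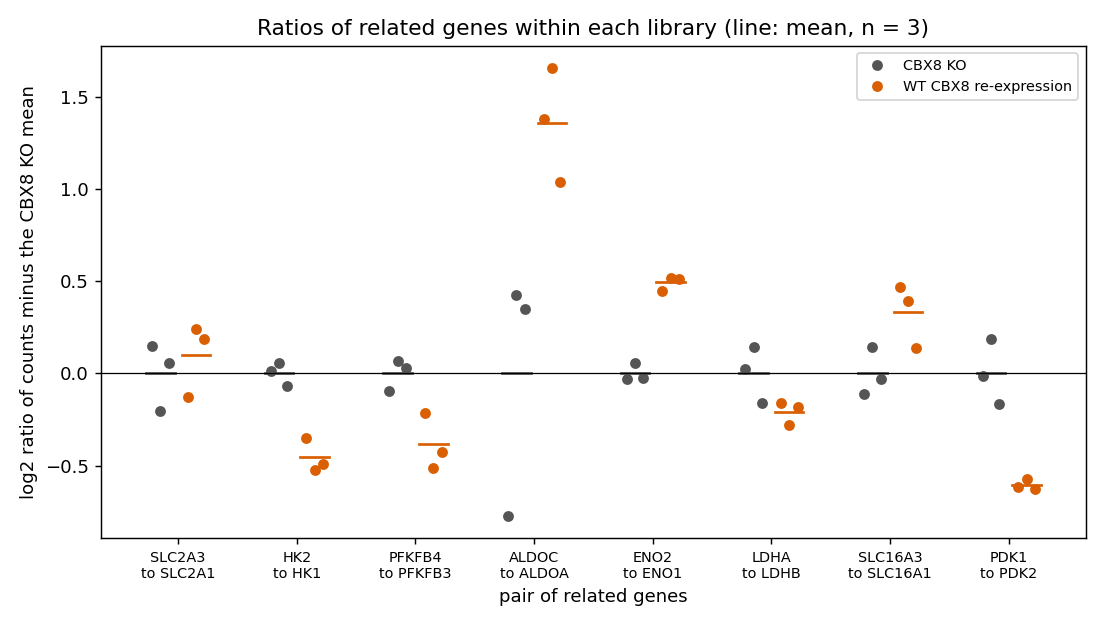
Log2 ratio of counts within each library for 8 pairs of related genes, minus the CBX8 KO mean of that pair, so that the CBX8 KO mean lies at 0 (points, libraries; lines, group means, n = 3). The groups separate for HK2 to HK1, PFKFB4 to PFKFB3, ALDOC to ALDOA, ENO2 to ENO1 and PDK1 to PDK2, and overlap for the other 3 pairs.

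Of the side branches, PGM1, which links glycogen to glucose 6-phosphate, stood at 97.1, 101 and 94.8 CPM in CBX8 KO and at 91.3, 84.2 and 86.4 in WT CBX8 re-expression. Its groups did not overlap and its log2 fold change of -0.16 missed the threshold (SE 0.05, adjusted p = 0.0574), but it passed with an adjusted p of 0.0426 when WT CBX8 re-expression replicate 1 was left out, and of 0.02 with the GC and length correction. BPGM, which makes 2,3-bisphosphoglycerate, had 0.01 (adjusted p = 0.976), and ADPGK, the ADP-dependent glucokinase, had -0.03 (adjusted p = 0.818). TIGAR, a p53-induced fructose bisphosphatase, had 10 to 16 counts per library, and its log2 fold change of -0.28 (SE 0.35, adjusted p = 0.674) could not be told from 0 at this depth. Another annotated gene on the same strand covers 20.8% of its exon bases.

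Several of these genes have processed pseudogenes that can take their reads. Pseudogene symbols held 0.254% to 0.299% of the reads of GAPDH and its pseudogenes, 1.16% to 1.47% for LDHA, 0.862% to 1.17% for TPI1 and 0.354% to 0.869% for PGAM1. Of 8 pseudogenes tested, 1 fell, LDHAP4, with 286, 350 and 273 counts in CBX8 KO and 237, 253 and 199 in WT CBX8 re-expression (log2 fold change -0.49, SE 0.10, adjusted p = 0.000943). Whether its reads came from LDHA was not tested. With all pseudogene counts added, the log2 fold change of LDHA was -0.45, as without them.

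A further 58 genes of glucose, pyruvate and lactate handling were listed for comparison (other transporters and isoforms, gluconeogenesis, the pyruvate carrier, the rest of the pyruvate dehydrogenase complex, malic enzymes and the glyoxalases). Of these, 31 were tested, 2 fell, 2 rose and 27 did not pass, with a median log2 fold change of -0.03. Beside 6.63% and 6.23% of all tested genes, these counts are near the background. MPC1, a subunit of the mitochondrial pyruvate carrier, stood at 23.1, 27.1 and 27.5 CPM in CBX8 KO and at 21.3, 17.7 and 18.1 in WT CBX8 re-expression (log2 fold change -0.45, SE 0.11, adjusted p = 0.0046), whereas its partner MPC2 had a log2 fold change of 0.09 (adjusted p = 0.49). SLC2A12, which encodes the transporter GLUT12, stood at 21.7, 18.1 and 16.1 CPM in CBX8 KO and at 13.4, 11.4 and 12.5 in WT CBX8 re-expression (log2 fold change -0.58, SE 0.12, adjusted p = 0.00154). Both passed in every setting tried. The genes that rose were SLC2A6, which encodes the lysosomal transporter GLUT6 (9.53 ± 0.495 CPM against 13 ± 0.780 CPM, SD, n = 3, log2 fold change 0.45, SE 0.13, adjusted p = 0.0147), and HAGH, the second glyoxalase (12.6 ± 0.698 CPM against 17.2 ± 0.708 CPM, log2 fold change 0.45, SE 0.11, adjusted p = 0.00716). The adjusted p of SLC2A6 became 0.0663 without CBX8 KO replicate 2, and it was 0.0935 with WT CBX8 re-expression replicate 2 left out, 0.162 by DESeq2 and 0.057 with the GC and length correction. That of HAGH became 0.0922 by DESeq2. BSG, the chaperone of the lactate transporters, had a log2 fold change of -0.03 (adjusted p = 0.72).

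**Figure D5:**
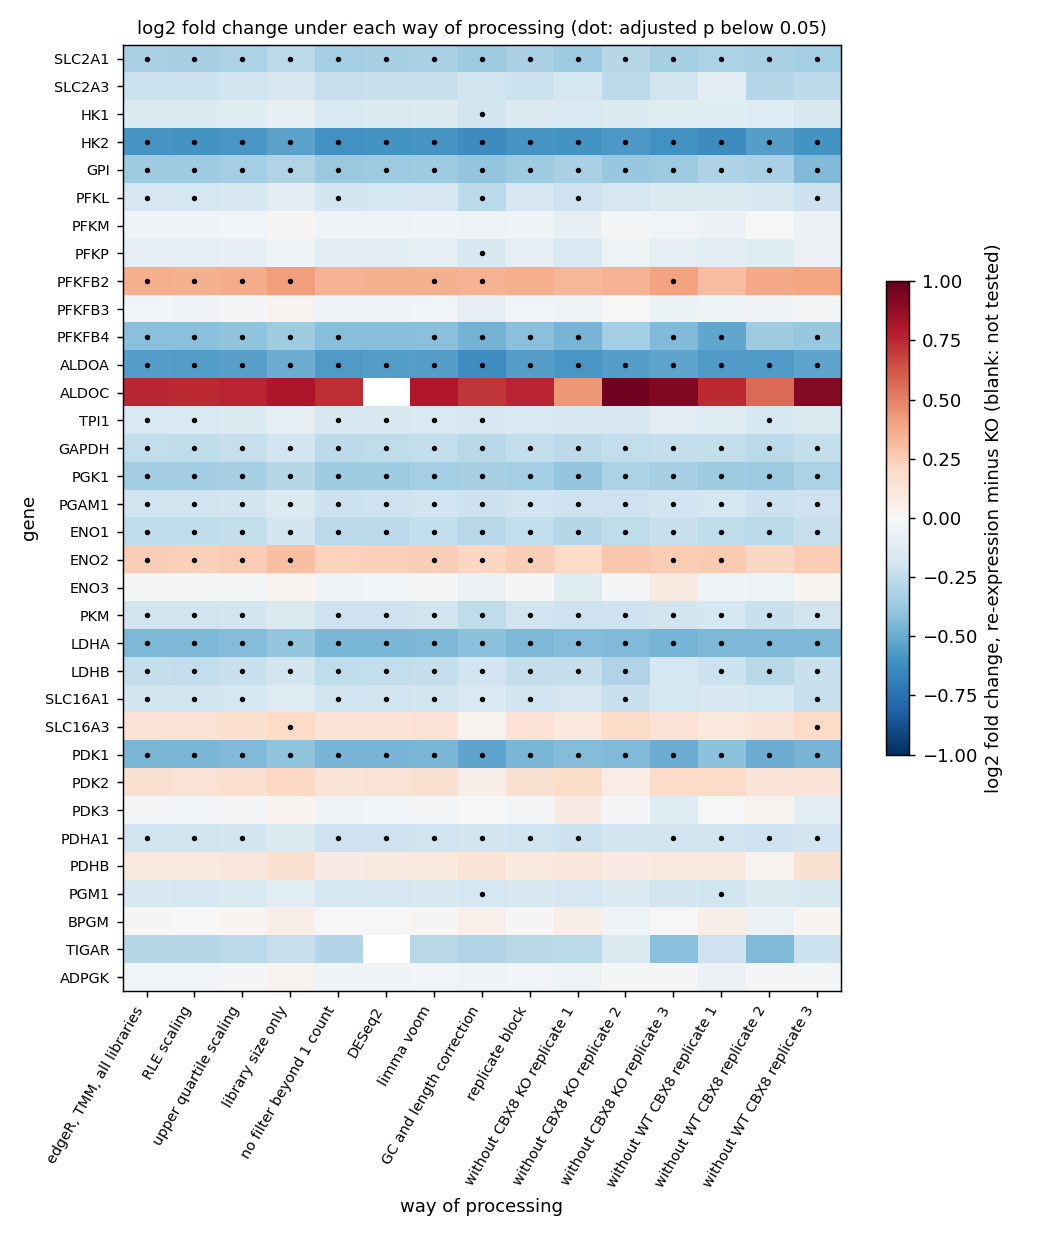
Log2 fold change (color) of the 34 tested genes (rows) with edgeR on all 6 libraries after TMM scaling (first column) and with other settings or a library left out (other columns); dots mark an adjusted p below 0.05. The 10 genes with a dot in every column, HK2 and LDHA among them, keep their direction throughout.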

How the data were processed

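Poly(A) RNA of 6 T98G libraries was sequenced, 3 CBX8 KO and 3 WT CBX8 re-expression. The authors deposited unnormalized whole-number counts per gene symbol. Per the study's methods and processing notes, reads were trimmed with Trimmomatic and aligned to hg38 with HISAT2. The counting program, annotation and strand setting are not given in the sources used here, so the handling of reads from overlapping genes and pseudogenes is not known. Total counts were 7950190 to 8659796 per library, and precision from depth covers counting error only.

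The genes, comparison lists and tests were chosen with earlier results of these data known. In R 4.3.3, genes were filtered with filterByExpr, scaled by TMM and compared with edgeR 4.0.16 (glmQLFit and glmQLFTest, condition only), with Benjamini-Hochberg adjustment over 14461 genes. Fold changes are WT CBX8 re-expression over CBX8 KO, SEs were derived from the fold change and its F statistic, 95% intervals used a normal approximation, and CPM uses TMM-adjusted library sizes. The biological coefficient of variation was 4.7%. Ratios added 0.5 to each count and were tested by an exact permutation test, adjusted over 8 ratios. Named genes were CBX8, all 35 genes and those of the second list past the threshold. Alternatives were other scalings, no filter, DESeq2 1.42.0, limma voom 3.58.1, a GC and length correction, FDR < 0.01, a block for the replicate number, and fits without each library in turn. The fit was tested on simulated data. Gene length and overlap came from GENCODE 44 (36501 symbols matched by name and 888 by a RefSeq synonym), and promoters from RefSeq (GRCh38.p14). The motif search, the level of log2 CPM 6 and the marker genes KRT5, NES and CHI3L1 singled out were chosen after values were seen. Within each group, a chi-square test of counts found no pair of libraries alike enough to be 1 library deposited again (2.06 to 3.09 per degree of freedom). Pairs across the groups were not tested. Same-numbered libraries did not deviate together (correlations of -0.106, -0.086 and -0.112 over 10318 genes), so the numbers were not taken to pair them. Across numbers, CBX8 KO replicates 1, 2 and 3 correlated positively with WT CBX8 re-expression replicates 3, 1 and 2 (0.188, 0.15 and 0.148), and all other pairs were negative. Whether libraries shared a batch across numbers was not tested.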

Additional observations from a re-analysis of the deposited data

How the results depend on the processing

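The number of genes that fell was 17, and it was 15 with upper quartile scaling or DESeq2, 12 with scaling by library size alone or FDR < 0.01, 20 with a GC and length correction and 13 to 16 with a library left out. With the replicate number as a block it was 15, with 1 gene higher. Calls over all genes moved too, from 959 lower to 592 with library size alone, 674 with DESeq2 and 1357 with the GC and length correction. The number that rose was 2, and it was 3 with library size alone, 0 with no filter or with DESeq2 (3 and 2 genes at an unadjusted p under 0.05), 0 at FDR < 0.01 and 0 to 2 with a library left out. In the second list, the number that rose was 2, and it was 0 with DESeq2 (2 at an unadjusted p under 0.05), 1 with the GC and length correction or FDR < 0.01 and 1 to 2 with a library left out, while 2 fell in every setting. The median log2 fold change of the 34 genes was -0.178, and -0.123 with library size alone, which moved the median of all genes to 0.0602. It was -0.197 to -0.151 with a library left out. FDR < 0.01 was 1 of the 15 other settings and reused the same fit with a stricter threshold. Of 568 repeat results of 38 genes (the 34 and the 4 called in the second list) over these settings, 490 kept direction and side of the threshold, 56 lost the call, 6 gained it and 16 changed sign. Those that changed sign were not called. With library size alone these were PFKM (0.0155), PFKFB3 (0.0251), ENO3 (0.0349), PDK3 (0.0335) and ADPGK (0.0288). BPGM was -0.00395 with no filter and -0.000549 with DESeq2, and PDK3 was 0.00734 with the GC and length correction. With a library left out, PDK3 ranged from -0.127 to 0.0788, PFKFB3 from -0.0681 to 0.00775, ENO3 from -0.123 to 0.0875 and BPGM from -0.0605 to 0.0702. The causes were not tested. GC content and length were known for 87.8% of tested genes. The 8 ratios changed by less than the spread between replicates with 1 added to each count. A block cannot change these differences in a balanced design. With a library left out, they ranged from 0.97 to 1.57 for ALDOC to ALDOA, 0.479 to 0.522 for ENO2 to ENO1, -0.508 to -0.422 for HK2 to HK1, -0.69 to -0.515 for PDK1 to PDK2, -0.47 to -0.321 for PFKFB4 to PFKFB3, -0.289 to -0.137 for LDHA to LDHB, 0.265 to 0.431 for SLC16A3 to SLC16A1 and -5.53e-05 to 0.215 for SLC2A3 to SLC2A1. Changes under about 10% were near the smallest called among all genes (0.14 on the log2 scale), so genes that did not pass cannot be said to be unchanged.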
